A study of Mus musculus with 6 samples.

Results

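The 38 genes described here cover the path of glucose from its entry into the cell to the export of lactate, 26 genes in all, and the HIF oxygen-sensing system with genes that hypoxia induces, 12 in all. They were chosen by name from general knowledge of both pathways, isozyme by isozyme, with earlier results of these data known. All 38 were found among the 54838 genes counted in each library. The cells were intestinal stem cells from mice of the strain B6.129P2-Lgr5tm1(cre/ERT2)Cle/J, whose Lgr5 locus carries a green fluorescent protein reporter and a tamoxifen-inducible Cre. No tamoxifen or floxed allele is named in the labels, both groups carry the reporter allele, and the labels give neither age nor sex of the mice. Intestines of 4 mice were pooled on each of 3 days. Their brightest reporter cells were sorted, embedded in Matrigel in a medium with the Notch ligand peptide JAG-1 (1 µM) and the GSK3 inhibitor CHIR99021 (3 µM), and after 4 h given either 30 µM INT-777 or the solvent DMSO alone. INT-777 is a synthetic bile acid that activates the receptor TGR5. RNA was taken once, after 12 h by the sample labels and 16 h by the design text. Each day gave 1 DMSO and 1 INT-777 library, so that each group has 3, and libraries are named here by their day.

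Glycolysis splits glucose into pyruvate with a small yield of ATP. The early steps spend ATP to phosphorylate and cleave the sugar, and the late steps, from glyceraldehyde phosphate to pyruvate, recover it. Lactate dehydrogenase turns pyruvate into lactate, which monocarboxylate transporters carry out, while the pyruvate dehydrogenase complex sends pyruvate into the mitochondria. When oxygen is scarce, the prolyl hydroxylases of the EGLN family no longer mark HIF proteins for destruction, and HIF raises many of the glycolytic genes together with genes of pH control, mitophagy, collagen modification and blood vessel growth. Crypt stem cells are generally described as using mitochondrial oxidation with lactate supplied by neighbouring Paneth cells. The transcript levels below say nothing of enzyme activity, metabolite flux or oxygen tension, and none of these was measured.

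The libraries held 45682340 to 47905087 read pairs assigned to genes. Levels are given as CPM, counts per 1e6 assigned read pairs after scaling by edgeR's TMM factors, and levels of different genes are compared only per kb of exon. The sorted cells expressed stem cell markers (7 of 7 matched genes, Lgr5 at 53.7 to 74.5 CPM). Their sum was 1983 to 2385 CPM with DMSO and 1569 to 2005 with INT-777, and that of 6 Paneth markers 3415 to 3876 and 2247 to 3539. Other lineages were present: the summed level of 8 goblet markers ran from 5565 to 28229 CPM with DMSO and 2901 to 12450 with INT-777, and that of 6 enteroendocrine markers from 534.1 to 2405 and from 498.8 to 1866, with the highest library of each group on day 3 in both lists. Summed immune markers (6 genes) stayed at or below 2.95 CPM, endothelial markers (3 genes) at or below 2.78 and stromal markers (4 genes) at or below 1.25. The 4 tuft markers summed to 18.4 to 24.9 CPM over the libraries, with Pou2f3 at 10.1 to 12.8 and the cytokine Il25 at 0 in all libraries. In such bulk samples, fewer cells of a type and less RNA per cell cannot be told apart. The part of these marker differences in the results below was not tested.

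With INT-777, 5 of the 7 late-step genes, lactate dehydrogenase A and the lactate transporter Slc16a1 were slightly higher, by 1.11 to 1.22 fold, the regulators Pfkfb3 and Pfkfb4 were slightly lower, and hypoxia-induced genes went both ways. Treating the 3 libraries of a group as independent, 1 of the 38 genes passed the test, Pgam1, which rose (2.63% of the members, edgeR adjusted p under 0.05; background over all 15998 tested genes 1.45% in either direction, 0.688% higher and 0.763% lower), and none fell, with 3 lower members at an unadjusted p under 0.05. With the day as a block (16 members called, background 21.3%), which compares each INT-777 library with the DMSO library of its own day, 12 rose (31.6%, against a background of 11.1% of all tested genes higher) and 4 fell (10.5%, against 10.3% lower). The number that fell was thus at the background. The 12 were Slc2a1, Gapdh, Pgk1, Pgam1, Eno1, Pkm, Ldha, Slc16a1, Hif1a, Car9, Ndrg1 and Ero1l, and the 4 were Pfkm, Pfkfb3, Pfkfb4 and Bnip3. The median log2 change of the members was 0.07 and that of all tested genes 0.00, and 24 of the 38 were positive against 50.7% of all genes. Log2 changes ran from −0.49 (Bnip3) to 0.55 (Ndrg1), so no member changed as much as 1.5-fold.

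The blocked result rests on days that were not equally far apart. The median absolute log2 difference over the 38 genes was 0.03 between the DMSO libraries of days 1 and 2 and 0.14 between those of days 1 and 3 (0.04 and 0.11 with INT-777). With the block and without both libraries of day 1, 12 members rose and 3 fell (background 10.4% higher and 9.58% lower). Without day 2, 9 rose and none fell (edgeR adjusted p under 0.05; 2 lower members had an unadjusted p under 0.05; background 4.79% higher and 7.17% lower). Without day 3, 13 rose and 3 fell (background 12.1% higher and 12% lower). Slc2a1, Pgk1, Pgam1, Eno1, Pkm, Ldha, Slc16a1, Car9 and Ndrg1 rose in all 3 of these fits. Epas1 was among the 3 that fell without day 1. In the fit without the block, 9 members had an unadjusted p under 0.05 with a higher level and 3 with a lower one. The same edgeR fit with median-ratio in place of TMM scaling had 7 higher and 4 lower. There 2514 of all 15998 tested genes had an unadjusted p under 0.05 in either direction. That number was not counted for the fit with TMM scaling, nor split by direction. These member counts therefore have no matching background.

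**Figure D1:**
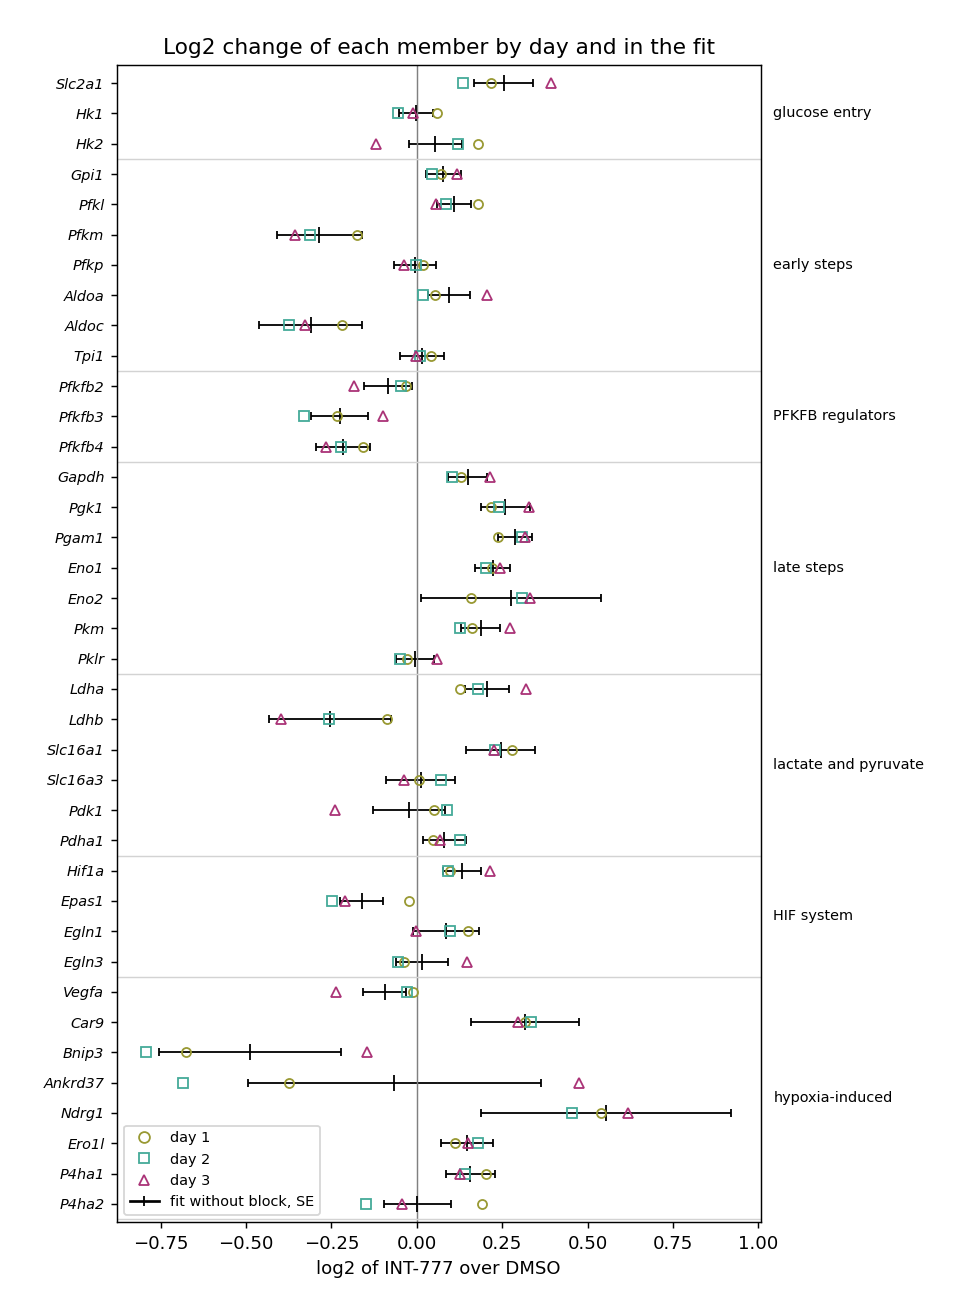
Log2 of INT-777 over DMSO for the 38 genes, grouped by role, with 1 symbol for each day and the estimate of the fit without the day block as a tick with its standard error. The late steps from Gapdh to Pkm lie to the right of 0 on all 3 days apart from Pklr, the PFKFB genes lie to the left, and the hypoxia-induced genes spread from Bnip3 on the left to Ndrg1 on the right.

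The promoters of 5 members are shown because HIF acts through a short element whose core is ACGTG or GCGTG, and because these genes include risers of glycolysis (Pgam1, Pgk1, Ldha) and of the hypoxia list (Car9) beside a hypoxia gene that fell (Bnip3). Each line gives the 250 bases before the annotated start, 5′ to 3′ on the gene's strand, from RefSeq on GRCm38.p6. Capitals mark the core on either strand, which reads CACGT or CACGC where it lies on the other one.
Pgam1 (chr19:41911621-41911870, plus strand): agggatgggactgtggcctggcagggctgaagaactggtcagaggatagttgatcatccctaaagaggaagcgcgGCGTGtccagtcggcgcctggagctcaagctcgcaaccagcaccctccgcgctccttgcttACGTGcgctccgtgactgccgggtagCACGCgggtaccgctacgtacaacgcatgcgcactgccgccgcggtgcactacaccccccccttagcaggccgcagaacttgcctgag
Pgk1 (chrX:106186850-106187099, plus strand): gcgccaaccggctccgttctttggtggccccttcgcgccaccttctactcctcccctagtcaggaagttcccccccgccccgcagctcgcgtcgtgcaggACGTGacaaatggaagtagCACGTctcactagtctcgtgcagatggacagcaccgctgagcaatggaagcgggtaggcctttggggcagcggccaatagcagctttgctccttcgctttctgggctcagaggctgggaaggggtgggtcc
Ldha (chr7:46845554-46845803, plus strand): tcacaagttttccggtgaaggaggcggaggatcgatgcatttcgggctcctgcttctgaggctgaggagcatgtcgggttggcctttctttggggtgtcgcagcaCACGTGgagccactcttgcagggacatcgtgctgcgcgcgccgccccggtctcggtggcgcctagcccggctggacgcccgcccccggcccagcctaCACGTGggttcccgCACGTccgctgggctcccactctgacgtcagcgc
Car9 (chr4:43506776-43507025, plus strand): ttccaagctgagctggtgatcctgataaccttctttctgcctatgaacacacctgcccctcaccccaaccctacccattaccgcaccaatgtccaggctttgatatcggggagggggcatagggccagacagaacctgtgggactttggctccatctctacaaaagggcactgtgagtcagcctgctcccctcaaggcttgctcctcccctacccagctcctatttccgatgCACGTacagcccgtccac
Bnip3 (chr7:138909507-138909756, minus strand): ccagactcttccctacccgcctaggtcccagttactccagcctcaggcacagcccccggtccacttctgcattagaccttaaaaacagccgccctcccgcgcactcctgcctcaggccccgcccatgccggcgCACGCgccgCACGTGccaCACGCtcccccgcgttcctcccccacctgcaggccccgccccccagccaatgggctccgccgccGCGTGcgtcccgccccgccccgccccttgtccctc
A palindromic CACGTG, also the E-box bound by Myc and other helix-loop-helix factors, holds the core on both strands and was counted on each. In these stretches the core was matched 3 times for Pgam1, 2 times for Pgk1, 5 times for Ldha, 1 time for Car9 and 5 times for Bnip3. The Ldha stretch holds CACGTG at 2 places, and this stretch belongs to the first listed of its 2 start sites.

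RefSeq promoter windows, from 250 bases before to 50 after the start, were found for 35 of the 38 genes, and not for Epas1, Ndrg1 and Ero1l. The core was matched in at least 1 window of 31 of them (88.6%), against 46.7% of all 27025 genes with a window and 66.2% of the 11079 of these that entered the test. Of single windows, 41 of 52 held it (78.8%), against 43.8% of all 32851. Member windows were also richer in G and C, with a median of 61.7% against 52.7%, and the core contains a CG. Among the members with a window, 10 of 10 that rose with the block, 4 of 4 that fell and 17 of 21 others held the core, so it was present in members of either direction. No match was found for Gpi1, Tpi1, Eno2 and Pklr. A match is a match of letters and not a bound site.

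**Figure D2:**
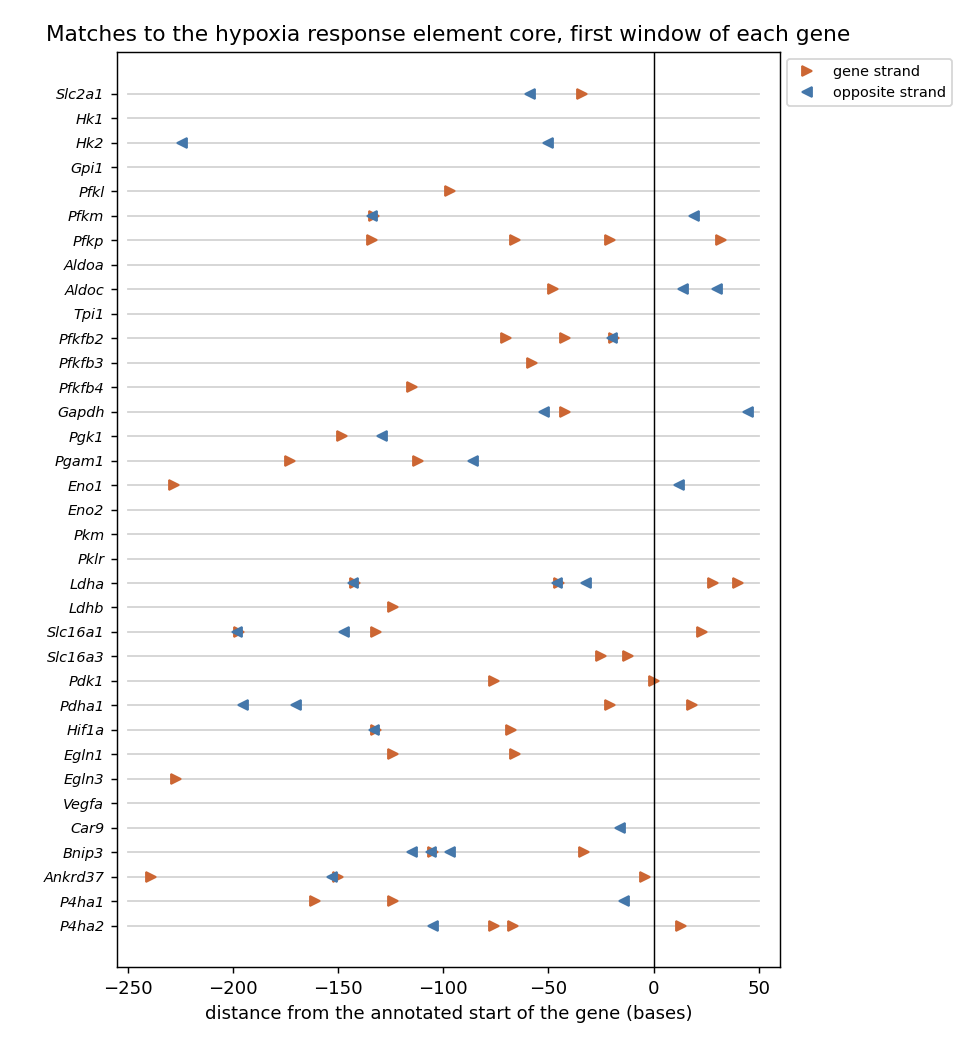
Positions of the core in the first listed promoter window of 35 members, as distance in bases from the annotated start, with arrowheads for the strand. Matches are scattered over the window in members that rose and in members that fell, such as Bnip3 with matches at 4 places.

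Glucose enters through the transporter Slc2a1 and is trapped by hexokinases. Slc2a1 stood at 75.9, 75.7 and 79.8 CPM with DMSO, in the order of the days here and below, and at 88.2, 83.1 and 104.7 in the INT-777 libraries. All INT-777 values lay above all DMSO values, with the largest gap on day 3. The log2 change was 0.25 ± 0.09 (SE) without the block, where it did not pass (edgeR adjusted p = 0.212), and 0.25 ± 0.05 with it, where it did (edgeR adjusted p = 0.00254). Hk1, the ubiquitous hexokinase, averaged 92.3 ± 2.33 CPM in DMSO libraries and 92.1 ± 3.12 in INT-777 libraries (SD, n = 3, as for all such means here). Hk2, the inducible isozyme, was at 119.3, 121.3 and 145.1 CPM with DMSO and 135.1, 131.8 and 133.5 with INT-777, higher on days 1 and 2 and lower on day 3. Per kb of exon the level of Hk2 (21.5 CPM per kb with DMSO) was above that of Hk1 (10.8) in every library.

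Among the early steps, the abundant enzymes moved little. Gpi1, which isomerises glucose phosphate, was at 402.9 ± 12.4 CPM with DMSO and 425.0 ± 2.45 with INT-777 (log2 0.08 ± 0.05), and Aldoa, the main aldolase, at 976.5, 972.5 and 949.6 CPM and 1013, 984.5 and 1094 (0.09 ± 0.06). Both had all INT-777 libraries above all DMSO libraries, and neither passed in either fit. Tpi1, which interconverts the cleaved triose phosphates, had a log2 change of 0.02 ± 0.06. Aldoc, a low-level aldolase of brain, was at 4.12, 4.82 and 5.48 CPM with DMSO and 3.54, 3.71 and 4.37 with INT-777. It was lower on each day, though the groups overlapped (log2 −0.31 ± 0.15), and it did not pass with the block (edgeR adjusted p = 0.0613). The symbol Aldoa is also carried by a short upstream Ensembl gene with 71 to 100 read pairs per library, which was kept apart.

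The phosphofructokinase subunits, which carry out the committed step, diverged slightly. Pfkl, the liver type, was at 94.7, 94.8 and 94.4 CPM with DMSO and 107.2, 100.7 and 98.0 with INT-777. Its groups did not overlap and its log2 change of 0.11 ± 0.05 did not pass (edgeR adjusted p = 0.335, and 0.0932 with the block). Pfkp, the platelet type, was at 200.3, 200.8 and 186.7 CPM with DMSO and 203, 200.6 and 182.1 with INT-777 (log2 −0.01 ± 0.06). Pfkm, the muscle type, was at 17.0, 16.8 and 21.6 CPM with DMSO and 15.1, 13.5 and 16.9 with INT-777, lower on each day although the groups overlapped. It fell with the block (log2 −0.28 ± 0.07, edgeR adjusted p = 0.00856) and not without it (edgeR adjusted p = 0.310). Without both libraries of day 2, the blocked fit did not call Pfkm. Pfkm shares exon sequence with Senp1 on the other strand, and read pairs of overlapping genes cannot be told apart in these unstranded counts. Pairs that fall on exons of both genes are counted as ambiguous, and ambiguous pairs were left out.

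The PFKFB enzymes make and remove the fructose bisphosphate that activates phosphofructokinase. All 3 were lower with INT-777 on each of the 3 days. Pfkfb3, the isozyme with the highest kinase activity, was at 37.8, 39.4 and 32.1 CPM with DMSO and 32.1, 31.3 and 29.9 with INT-777. The INT-777 value of day 1 reached the DMSO value of day 3, and the log2 change was −0.23 ± 0.08 (edgeR adjusted p = 0.246, and 0.0127 with the block). Pfkfb4 was at 13.3, 13.2 and 14.7 CPM with DMSO and 11.9, 11.3 and 12.2 with INT-777, without overlap (log2 −0.22 ± 0.08, edgeR adjusted p = 0.243, and 0.0493 with the block). Pfkfb2, the heart type, was at 24.7 ± 0.830 and 23.3 ± 1.64 CPM (log2 −0.08 ± 0.07) and did not pass. Both are known HIF targets, as are Slc2a1 and Ldha, which rose. Neither Pfkfb3 nor Pfkfb4 was called in the blocked fit without day 2, and without day 1 or without day 3 Pfkfb3 was and Pfkfb4 was not.

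Most late-step enzymes rose together when the day was blocked. Of 7 genes, 5 rose with the block (71.4%, against 11.1% of all tested genes) and none fell (against 10.3%). The log2 change without the block was above 0 for 6, against 50.7% of all tested genes, the median being 0.22. Pgam1, phosphoglycerate mutase (chromosome 19, 41911923 to 41918660, GRCm38), was at 96.2, 92.5 and 88.7 CPM with DMSO and 113.4, 114.4 and 110.4 with INT-777. Its lowest INT-777 library was above its highest DMSO library, and each group kept within a few CPM. It rose 1.22-fold (log2 0.29 ± 0.05, edgeR adjusted p = 0.0419 without the block and 0.000176 with it). Over the 23 other settings its log2 change stayed between 0.25 and 0.31 and its adjusted p ranged from 1.74e-07 to 0.855, with 9 settings that called it. Leaving out any 1 of the 6 libraries ended the unblocked call.

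Pgk1, which makes the first ATP of the pathway (chromosome X, 106187100 to 106203699), was at 288.5, 286.9 and 250.5 CPM with DMSO and 335.3, 338.8 and 314.5 with INT-777. Both groups were lowest on day 3 and did not overlap, and the gene rose 1.20-fold with the block (log2 0.26 ± 0.04, edgeR adjusted p = 0.000323; without it 0.139). Eno1, the main enolase (chromosome 4, 150236721 to 150248879), was at 736.6, 744.4 and 717.5 CPM with DMSO and 858.1, 857.1 and 848.8 with INT-777. The gap between its groups was wider than the range within either (log2 0.22 ± 0.05, edgeR adjusted p = 0.0979, and 0.00113 with the block). Pkm, the pyruvate kinase of proliferating and many adult tissues, was at 1414, 1429 and 1351 CPM with DMSO and 1582, 1560 and 1632 with INT-777 (log2 0.19 ± 0.06, edgeR adjusted p = 0.174, and 0.0071 with the block). The counts are per gene and do not separate the splice forms of Pkm.

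Gapdh, often used as a reference gene, was at 1685, 1700 and 1590 CPM with DMSO and 1844, 1826 and 1846 with INT-777. It too had no overlap, and it rose 1.11-fold with the block (log2 0.15 ± 0.04, edgeR adjusted p = 0.0226; without it 0.252), though not in the blocked fit without day 2. Eno2, the neuronal enolase, was near the limit of detection at 0.61, 0.69 and 0.88 CPM with DMSO and 0.68, 0.86 and 1.11 with INT-777 (log2 0.28 ± 0.26). Pklr, the liver and red cell pyruvate kinase, was at 109.0 ± 2.36 and 108.6 ± 5.98 CPM (log2 −0.01 ± 0.05). It shares exon sequence with Hcn3 on the other strand.

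Exons of 17 of the 38 genes overlap those of another annotated gene, Ndrg1 and Car9 among them. Some of the genes have near-identical processed copies in the genome, and read pairs that match several places equally well are not in the gene counts. At 95% identity over at least 300 bases, 10 of the 38 genes had such copies, Gapdh 43 of them, Pgk1 and Bnip3 4 each, Eno1 and Ldha 3 each, and Gpi1, Tpi1, Pgam1, Pkm and Ldhb 1 each. Few pairs fell on the copies: 230 to 389 per library over those of Gapdh, against 73741 to 87003 on the gene, and 24 to 49 on that of Pgam1, against 4113 to 5453. How many pairs of each gene were set aside as multimapping was not analysed here, so the true levels may be higher.

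**Figure D3:**
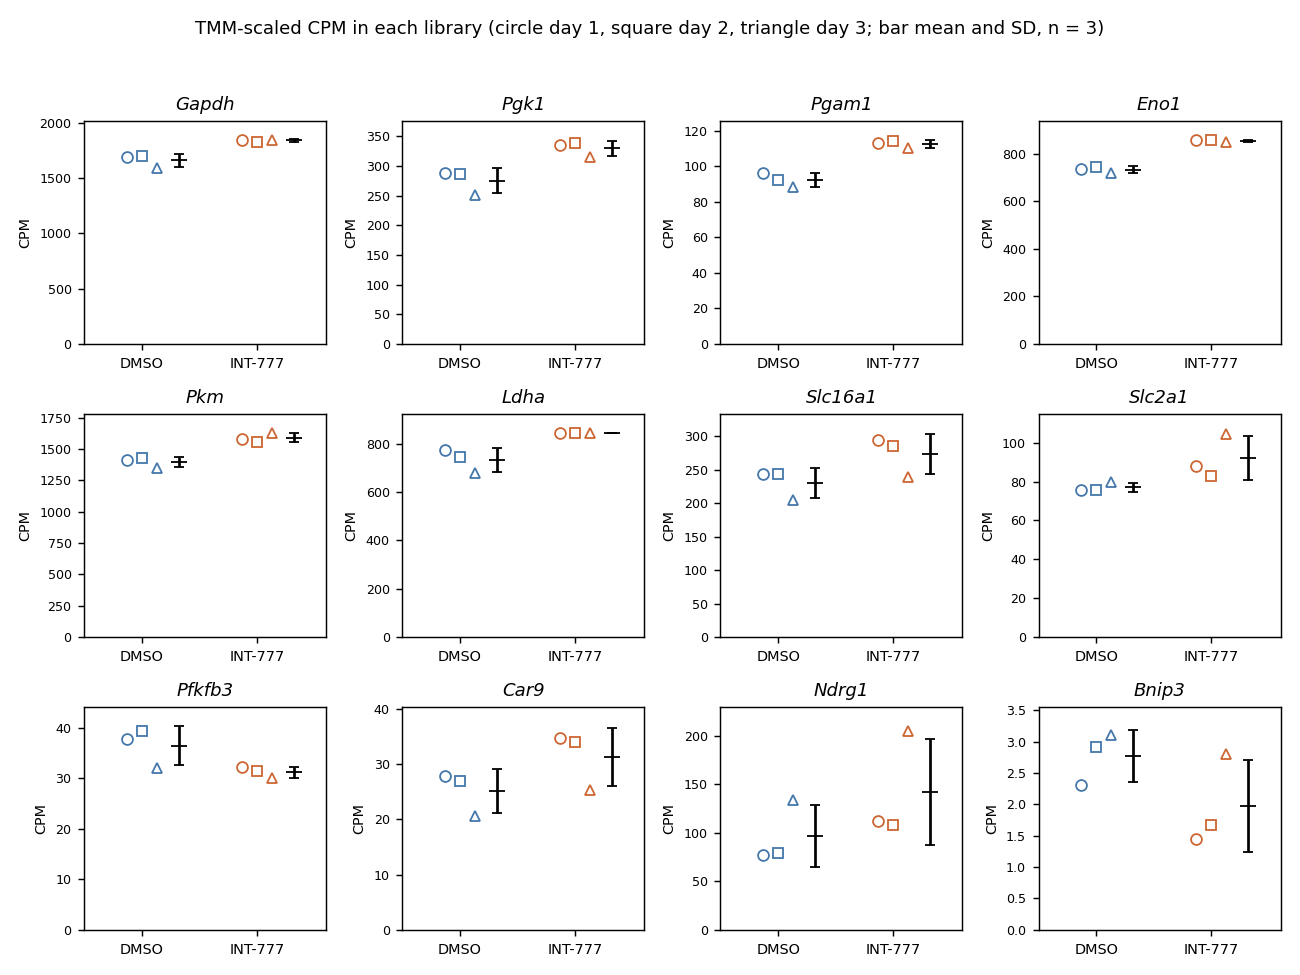
TMM-scaled CPM of 12 members in each library, DMSO in blue and INT-777 in orange, with a symbol for each day and the mean and SD of 3 libraries beside them. Gapdh, Pgk1, Pgam1, Eno1, Pkm, Ldha and Slc2a1 show no overlap between groups, while Slc16a1, Pfkfb3, Car9, Ndrg1 and Bnip3 overlap.

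At the branch to lactate, Ldha, the subunit that favours lactate formation (chromosome 7, 46841475 to 46855627), was at 776.0, 746.8 and 678.2 CPM with DMSO and 846.3, 846.0 and 846.3 with INT-777. The DMSO libraries spread over a wide range while the INT-777 libraries were almost equal. The log2 change was 0.21 ± 0.07 (edgeR adjusted p = 0.190) and 0.21 ± 0.05 with the block (edgeR adjusted p = 0.00411). Ldhb, the subunit of oxidative tissues, was very low, at 1.24, 1.28 and 1.55 CPM with DMSO and 1.17, 1.07 and 1.18 with INT-777, without overlap and without a call (log2 −0.25 ± 0.18, edgeR adjusted p = 0.520, and 0.413 with the block).

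Slc16a1, the widely expressed proton-linked lactate carrier, was at 243.3, 244.4 and 205.1 CPM with DMSO and 295.1, 286.4 and 239.6 with INT-777. Day 3 was low in both groups, so that the groups overlapped, but the log2 difference was 0.28, 0.23 and 0.22 on days 1, 2 and 3. It rose with the block (log2 0.24 ± 0.04, edgeR adjusted p = 0.000411) and not without it (edgeR adjusted p = 0.287). Slc16a3, the hypoxia-induced carrier of highly glycolytic cells, was at 6.37 ± 0.443 and 6.42 ± 0.286 CPM (log2 0.01 ± 0.10). Pdk1, the HIF-induced kinase that shuts pyruvate dehydrogenase, was at 32.5, 32.5 and 30.8 CPM with DMSO and 33.7, 34.5 and 26.1 with INT-777, slightly higher on days 1 and 2 and lower on day 3 (log2 −0.02 ± 0.11). Pdha1, the catalytic subunit of pyruvate dehydrogenase, was at 201.7 ± 10.1 and 213.3 ± 12.1 CPM (log2 0.08 ± 0.06), and neither passed in either fit.

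Of the oxygen-sensing system itself, Hif1a, the broadly expressed HIF alpha subunit, was at 173.3, 174.7 and 157.0 CPM with DMSO and 185.3, 186.1 and 182.2 with INT-777. The groups did not overlap, and the gene rose 1.10-fold with the block (log2 0.13 ± 0.04, edgeR adjusted p = 0.0308; without it 0.300). It was not called in the blocked fit without day 2 or without day 3. Epas1, the other alpha subunit, was at 28.3, 31.5 and 30.7 CPM with DMSO and 27.9, 26.5 and 26.5 with INT-777. It lay below all DMSO libraries but close to them on day 1, and did not pass (log2 −0.16 ± 0.06, edgeR adjusted p = 0.258, and 0.0737 with the block). HIF alpha proteins are controlled mainly by their stability, which RNA does not show. The hydroxylase Egln1 was at 50.2 ± 3.62 and 53.3 ± 6.33 CPM (log2 0.09 ± 0.10), and Egln3, itself a HIF target, at 22.9 ± 1.99 and 23.1 ± 0.477 (log2 0.01 ± 0.08). Neither passed in either fit.

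The hypoxia-induced genes did not move as 1 group. With the block, 3 of 8 rose (37.5%, against 11.1% of all tested genes), 1 fell (12.5%, against 10.3%) and 4 did not pass. The number that fell was thus near the background. Ndrg1, a stress and hypoxia gene also tied to epithelial differentiation (chromosome 15, 66929318 to 66969640), was at 77.5, 79.0 and 133.8 CPM with DMSO and 112.7, 108.2 and 205.6 with INT-777. It was highest on day 3 in both groups, and the INT-777 libraries of days 1 and 2 lay below the DMSO library of day 3. Within days the log2 difference was 0.54, 0.45 and 0.62, and Ndrg1 rose 1.45-fold with the block (log2 0.54 ± 0.04, edgeR adjusted p = 6.0e-07), the largest rise among the 38 genes. Without the block it did not pass (0.55 ± 0.37, edgeR adjusted p = 0.515). The goblet markers were also highest on day 3 in both groups, and lower with INT-777 on each day (5661, 5565 and 28229 CPM with DMSO, 3001, 2901 and 12450 with INT-777). The part of cell types in the change of Ndrg1 was not tested.

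Car9, the membrane carbonic anhydrase that handles acid made by glycolysis, was at 27.8, 26.9 and 20.6 CPM with DMSO and 34.7, 33.9 and 25.3 with INT-777. It was lowest on day 3 in both groups, the reverse of Ndrg1, and the log2 difference was 0.32, 0.33 and 0.30 on the 3 days. Car9 rose with the block (log2 0.32 ± 0.06, edgeR adjusted p = 0.000904) and not without it (edgeR adjusted p = 0.374). Ero1l, an oxidase of protein folding in the endoplasmic reticulum, was at 68.0, 63.2 and 73.9 CPM with DMSO and 73.5, 71.7 and 82.0 with INT-777, higher on each day. It rose with the block (log2 0.15 ± 0.04, edgeR adjusted p = 0.0262; without it 0.391), though not in the blocked fit without day 2.

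Bnip3, a mitophagy receptor that is commonly among the strongest hypoxia genes, was low here, at 2.30, 2.91 and 3.10 CPM with DMSO and 1.44, 1.68 and 2.80 with INT-777. It was lower on each day, clearly on days 1 and 2 and barely on day 3. The log2 change was −0.49 ± 0.27 (edgeR adjusted p = 0.406) and −0.51 ± 0.16 with the block, where it fell (edgeR adjusted p = 0.0348). The blocked fit called it without day 3 and not without day 1 or without day 2. Its counts were 106, 134 and 144 read pairs with DMSO and 68, 80 and 131 with INT-777, and it overlaps an antisense gene and has near-identical copies.

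Vegfa, the vessel growth factor, was at 46.0 ± 3.18 CPM with DMSO and 43.1 ± 1.05 with INT-777 (log2 −0.09 ± 0.06). P4ha1, a collagen prolyl hydroxylase, was at 11.7, 12.2 and 12.7 CPM with DMSO and 13.5, 13.4 and 13.8 with INT-777, without overlap but without a call (log2 0.16 ± 0.07, edgeR adjusted p = 0.326, and 0.147 with the block). P4ha2 was at 8.16 ± 0.372 and 8.16 ± 0.653 CPM (log2 0.00 ± 0.10). Ankrd37, a small ankyrin protein used in hypoxia signatures, had 19, 28 and 30 read pairs with DMSO and 15, 18 and 42 with INT-777, and its 3 days differed in sign. It shares exon sequence with Ufsp2 and Lrp2bp on the other strand. So of the 8 hypoxia-induced genes, Vegfa, P4ha1, P4ha2 and Ankrd37 did not pass in either fit. With the block, Car9, Ndrg1 and Ero1l rose and Bnip3 fell. Of the members of other roles named above as HIF targets or hypoxia-induced, Egln3, Pdk1 and Slc16a3 did not pass in either fit. Slc2a1 and Ldha rose and Pfkfb3 and Pfkfb4 fell with the block. Pfkfb4 was not called in any blocked fit without 1 day, and Bnip3 only in that without day 3.

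Read by whole groups of libraries, 12 of the 38 genes (31.6%) had all INT-777 libraries above all DMSO libraries, against 13.6% of all tested genes, and 3 (7.89%) had them below, against 11% of all tested genes. The 12 were Slc2a1, Gpi1, Pfkl, Aldoa, Gapdh, Pgk1, Pgam1, Eno1, Pkm, Ldha, Hif1a and P4ha1, and the 3 were Pfkfb4, Ldhb and Epas1. Day by day, 18 genes (47.4%) were higher with INT-777 on each day, against 26.8% of all tested genes, and 9 (23.7%) were lower, against 25.3%. The 26 glycolysis genes summed to 8132, 8144 and 7701 CPM with DMSO and 8880, 8779 and 8842 with INT-777. Most of that sum comes from a few genes, with the 7 late-step genes at 4332, 4360 and 4108 CPM with DMSO and 4843, 4800 and 4867 with INT-777.

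The isozymes were expressed very unequally. Per kb of exon, Gapdh (401.3 CPM per kb with DMSO), Aldoa (331.9), Pkm (279.5) and Ldha (221.7) were the highest members, and 11 of the 38 were among the 1000 highest of the 15998 tested genes. Aldoa made up 99.5 to 99.7% of the summed level per length of Aldoa and Aldoc, Eno1 99.9% of that of Eno1 and Eno2, Ldha 99.5 to 99.7% of that of Ldha and Ldhb, and Slc16a1 97.3 to 98.3% of that of Slc16a1 and Slc16a3. Phosphofructokinase was mixed, with Pfkp at 42.6 ± 1.97% (SD, n = 3), Pfkl at 41.3 ± 0.319% and Pfkm at 16.1 ± 2.28% of the level with DMSO.

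With INT-777 the share of Pfkl was 45.0, 44.2 and 44.05%, against 41.4, 41.5 and 40.9% with DMSO, a difference of 3.13 percentage points. The share of Pkm against Pklr was 90.4, 90.8 and 90.2% against 89.2, 89.7 and 88.8%, a difference of 1.22 points. Those of Aldoa and Ldha also did not overlap, with differences of 0.11 points each, which left 4 of 12 shares (33.3%) without overlap. Each of the 4 had p = 0.1, the smallest that the two-sided exact permutation test of 3 against 3 can give, and an adjusted p of 0.3 over the 12 shares by that exact permutation test. With 3 against 3 libraries no share could have passed 0.05. The shares of the 3 PFKFB genes, of Hk1 (33.5 ± 1.88% and 32.6 ± 0.538%) and of Eno1 overlapped between groups.

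**Figure D4:**
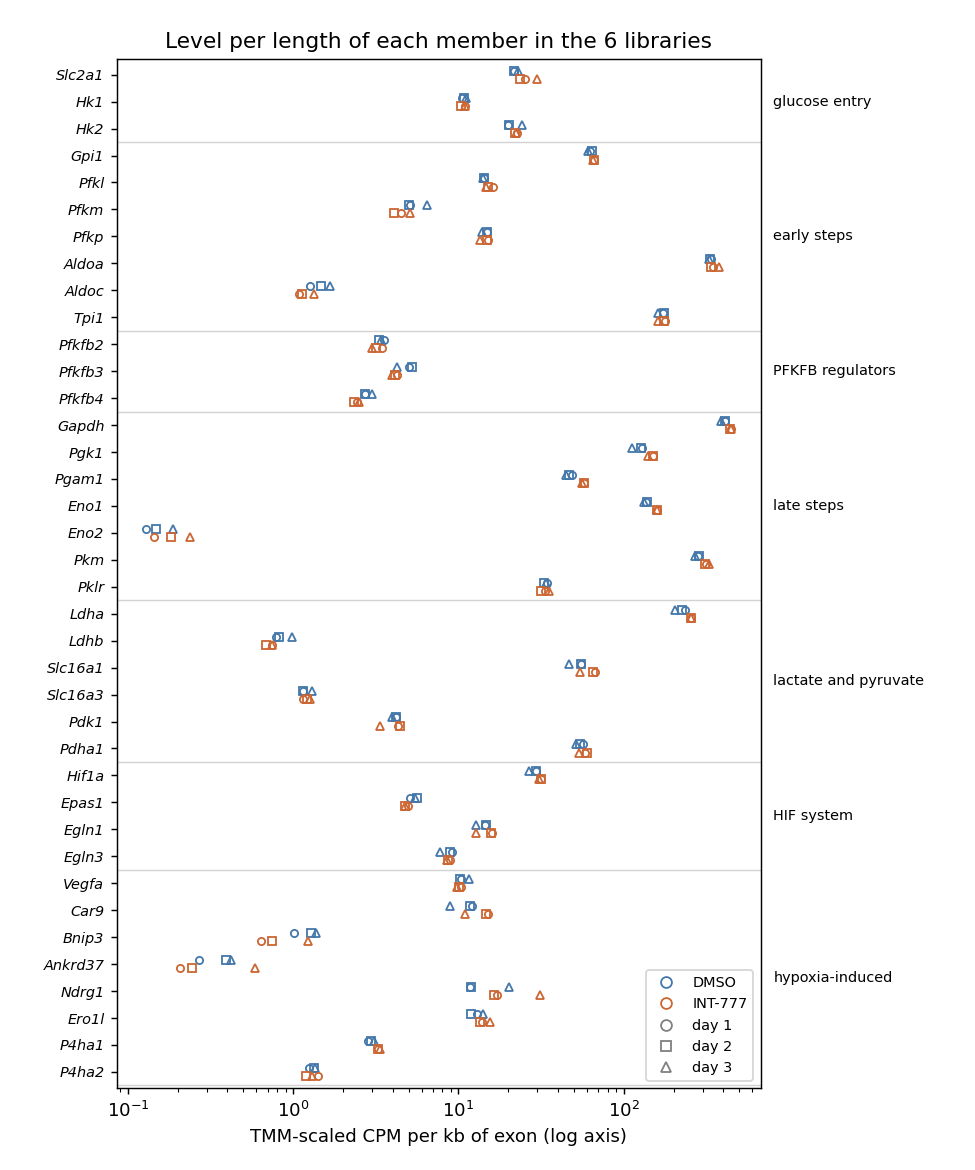
TMM-scaled CPM per kb of exon for the 38 genes on a log axis, with 3 DMSO libraries in blue and 3 INT-777 libraries in orange and a symbol for each day. Gapdh, Aldoa, Pkm and Ldha lie at the top of the range and Eno2, Ankrd37 and Ldhb at the bottom, while Pfkl and Pfkp lie close together.

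The day of the sort was the other labelled factor. With both factors fitted together, 6 of the 38 genes differed between days (15.8%, edgeR adjusted p under 0.05; background 20.5% of all tested genes), namely Ndrg1 (edgeR adjusted p = 7.5e-09), Car9 (0.000348), Slc16a1 (0.000901), Egln1 (0.0108), Pfkm (0.0176) and Ero1l (0.0274). On day 3 against the mean of days 1 and 2, Ndrg1, Pfkm and Ero1l were higher and Car9, Slc16a1 and Egln1 were lower. RNA integrity numbers were lowest on day 3 in both groups, 8.7 with DMSO and 9 with INT-777, against 9.2 to 9.6 on the other days. Whether RNA integrity or the make-up of the sort bears on these 6 genes was not tested. Of the late-step enzymes none differed between days (edgeR adjusted p from 0.0589 for Pgk1 to 0.992 for Pkm).

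Genes next to these pathways were read from the same fits, from lists drawn up by function with earlier results of these data known. The shares of calls in these lists are therefore descriptive. Of 25 tested further HIF-induced genes, 1 rose and 2 fell without the block, and 4 rose and 6 fell with it. That is 12% called without the block, against 1.45% of all tested genes, and 16% higher and 24% lower with it, against 11.1% and 10.3%. Edn1, the gene of the vasoconstrictor endothelin, was at 20.8, 19.2 and 14.5 CPM with DMSO and 6.57, 6.32 and 6.21 with INT-777. It fell in every pair of libraries, by −1.51 ± 0.14 on the log2 scale (edgeR adjusted p = 0.00584). Nos2, the inducible nitric oxide synthase, which inflammation also induces, fell more (log2 −3.32 ± 0.14, edgeR adjusted p = 0.00039). Stc2, a secreted glycoprotein of the hypoxia and unfolded protein responses, rose from 1.28, 1.37 and 1.42 CPM to 2.37, 2.41 and 2.70 (log2 0.88 ± 0.15, edgeR adjusted p = 0.0399). The median of this list was −0.04, so its members did not share a direction.

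In the other lists no gene passed without the block (edgeR adjusted p under 0.05); at an unadjusted p under 0.05 these were Slc5a1, Pdk4, Hsp90aa1 and Siah2, and 3 genes of gluconeogenesis and fructose use. With the block, the counts of these short lists are to be read against the same 11.1% higher and 10.3% lower. Among 20 tested further genes of glucose transport and glycolysis, 1 rose and 4 fell with the block. The sodium-coupled glucose transporter Slc5a1 of the brush border was at 93.1, 95.04 and 72.6 CPM with DMSO and 65.2, 64.5 and 52.5 with INT-777, opposite to Slc2a1 (log2 −0.52 ± 0.13, edgeR adjusted p = 0.121, and 1.14e-06 with the block). Slc2a9, a urate and hexose carrier, changed by −0.51 ± 0.22 on the log2 scale (edgeR adjusted p = 0.307, and 0.0185 with the block). The summed level of 7 enterocyte markers was 331.4 to 393.7 CPM with DMSO and 406.1 to 435.8 with INT-777, so Slc5a1 moved against this list, and the part of cell types in its change was not tested.

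Of 12 genes of pyruvate entry into mitochondria, 1 rose and 2 fell with the block. The one with the smallest unblocked p was the dehydrogenase kinase Pdk4 (log2 −0.49 ± 0.17, from 3.65 ± 0.611 to 2.60 ± 0.317 CPM, edgeR adjusted p = 0.226, and 0.0373 with the block), followed by the phosphatase regulator Pdpr (log2 −0.15 ± 0.08). Of 8 tested genes of gluconeogenesis and fructose use, 2 rose and 1 fell with the block, the last being the mitochondrial carboxykinase Pck2 (log2 −0.31 ± 0.09, edgeR adjusted p = 0.182, and 0.00796 with the block), and Fbp1 had a log2 change of −0.22 ± 0.09. Of 8 tested pentose phosphate genes, 3 rose and none fell with the block, with G6pdx, the entry enzyme, at 306.3 ± 4.42 and 344.4 ± 39.3 CPM (log2 0.17 ± 0.08, edgeR adjusted p = 0.357, and 0.0394 with the block). The INT-777 mean of G6pdx is lifted by the day 3 library at 389.8 CPM. H6pd, its counterpart in the endoplasmic reticulum, differed by 0.19 ± 0.10 on the log2 scale (edgeR adjusted p = 0.379, and 0.0115 with the block).

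Of 17 regulators of HIF, 3 rose with the block (Arnt2, Hsp90aa1 and Rack1; 17.6%) and none fell, near the 11.1% of all tested genes that were higher. The chaperone Hsp90aa1, which stabilises HIF alpha among many clients, was at 859.1, 852.5 and 738.0 CPM with DMSO and 975.6, 966.2 and 885.3 with INT-777 (log2 0.21 ± 0.08, edgeR adjusted p = 0.254, and 0.00216 with the block). The ubiquitin ligase Siah2, which targets EGLN proteins, differed by 0.19 ± 0.07 on the log2 scale (edgeR adjusted p = 0.270, and 0.0520 with the block).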

How the data were processed

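Read pairs per gene were measured in 6 bulk RNA libraries (BGISEQ-500). Per the submitters' processing notes, FastQC, STAR 2.73a and edgeR 3.24.3 were used, with builds GRCm38 and mm10. The sources used here do not name the annotation. The authors' files hold raw counts of read pairs per gene in STAR's layout; the column that ignores strand was used, since the first strand column held 50.1 to 50.6% of stranded pairs. Lines that name no gene were left out: unmapped 10.3 to 11.3%, multimapping 5.96 to 6.31%, no feature 3.32 to 3.83% and ambiguous 4.35 to 4.54% of pairs. Of 54838 IDs, 54809 matched GENCODE M21.

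Differences were fitted with edgeR 4.0.16 under R 4.3.3 (filterByExpr, TMM, robust quasi-likelihood F-test, two-sided, Benjamini-Hochberg over 15998 genes, threshold 0.05), treatment as the only term. All 38 genes passed the filter. DESeq2 1.42.0 and limma-voom (limma 3.58.1) were alternatives, as were other scalings, filters, strand columns, RNA integrity as a covariate, and leaving out libraries or days. The fits with and without the block were also run on simulated counts. These held no difference between days, so the day structure behind the blocked fit was not checked. Each standard error was derived from the size of the log2 change and its F statistic. Exon lengths are unions of GENCODE M21 exons. Other calculations used Python 3.11.15, scipy 1.17.1 and matplotlib 3.10.9.

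By the labels, libraries with 1 number come from 1 day and are paired. Their deviations from the group means had correlations of 0.329 (day 1), 0.369 (day 2) and 0.632 (day 3). edgeR's common coefficient of biological variation fell from 0.149 to 0.048 when the day was a block. Without the block, p-values measure the spread between days, each day a pool of 4 mice. With the block, they measure how the difference between INT-777 and DMSO varied over the 3 days.

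All 38 genes are named; those called, those of large change and the highest isozymes are given by library, and from each neighbouring list the called genes or the 2 of smallest p. Arnt2 and Rack1 were named after their values were seen. Members and lists were chosen with earlier results of these data known.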

Additional observations from a re-analysis of the deposited data

How the results depend on the processing

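With INT-777 against DMSO, 232 genes were called in all (edgeR, no block), and this count was 3415 with the replicate block, 2036 with RNA integrity as a covariate, 798 with DESeq2, 435 with no filter beyond 1 count, 114 with a 1.5-fold minimum, between 8 and 273 without single libraries, and 0, 3 and 4292 without both libraries of day 1, 2 or 3 (edgeR; 1189 genes had an unadjusted p under 0.05 without day 1, and no other tool was run). The number of the 38 genes called was 1, and it was 16 with the replicate block, 10 with RNA integrity, 4 with DESeq2 (Pgk1, Pgam1, Eno1 and Pkm, all higher), and 0 with median-ratio, upper-quartile or no scaling, limma-voom, either strand column or the 1.5-fold minimum. Among the fits with 0 calls by edgeR or limma, the number of members with an unadjusted p under 0.05 varied. The fewest were 2 higher and 0 lower without both libraries of day 2, beside 872 of all 16224 tested genes. The most were 10 higher and 4 lower without the INT-777 library of day 3, beside 3216 of all 16323. The number of members called was 0 without any single library or without day 1 or 2, and 19 without day 3. With the block and without 1 day, an alternative chosen after seeing the data, it was from 9 to 16 (3247, 1940 and 3853 genes in all without day 1, 2 or 3). The cause was not tested. The number of the 38 that differed between days was 6, and 11 with no filter beyond 1 count. The number of isozyme shares without overlap was 4 of 12, and ran from 4 to 8 without single libraries.

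Over the 23 alternatives signs changed 69 times, in 10 genes that were not called in the fit without the block and lay within 1 standard error of 0 there: Hk1, Hk2, Pfkp, Tpi1, Pklr, Slc16a3, Pdk1, Egln3, Ankrd37 and P4ha2. Of these, Hk2 was called higher without day 3 (log2 0.14, with and without the block) and was at −0.004 without day 1 of both groups. No member outside these 10 changed sign. Other scalings moved the median of all genes by less than 0.1 on the log2 scale. Ankrd37, Eno2 and Ldhb had only 15 to 72 read pairs per library and the standard errors that go with them.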
